A study of Mus musculus with 9 samples.

Results

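The genes described here are 28 listed genes of cholesterol synthesis, sterol sensing and lipoprotein receptor turnover, found by gene name among the 28481 genes of the deposited table. They comprise 20 enzymes of the pathway, 6 genes that control the sterol-regulated transcription factors called SREBPs, a cholesterol transfer protein and a ubiquitin ligase. All 28 passed the filter on low counts, as did 16123 genes in all. RNA sequencing measured expression in epididymal white fat (eWAT), a visceral depot of male mice. The series holds 5 control libraries and 4 libraries of UBKO mice, labelled as a Ctnnb1 knockout driven by Ucp1-cre, and every animal of both groups had received CL316,243, a beta3-adrenergic agonist. Ctnnb1 encodes beta-catenin, through which Wnt ligands reach transcription. Cre was driven from Ucp1, the uncoupling protein of brown and beige adipocytes, whereas RNA came from the whole tissue. The Ctnnb1 and Cre alleles carried by the controls, and strain, age, dose and duration of treatment, are not stated in the sources used here.

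Cholesterol is built from acetyl-CoA through mevalonate, farnesyl diphosphate, squalene and lanosterol. Its enzymes are transcribed under SREBPs, membrane-bound factors that the escort protein SCAP carries from the endoplasmic reticulum to the Golgi when sterols are scarce, where a pair of proteases releases the active fragment. INSIG proteins hold SCAP in the endoplasmic reticulum when sterols are plentiful. In fat, adipocytes store much cholesterol in their lipid droplets and take up a large part of it from lipoproteins.

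Several facts of the libraries bear on these genes. Gene counts summed to between 15308480 and 17632709 per library. Ctnnb1 itself stood at 311 ± 36.7 CPM (counts scaled to library size by TMM, the trimmed mean of M-values; SD, n = 5) in control against 224 ± 56.7 CPM (SD, n = 4) in UBKO libraries and did not pass the test (log2 difference -0.48, edgeR adjusted p = 0.0976). The library labelled UBKO replicate 3 had 307 CPM of Ctnnb1, within the control range of 276 to 360 CPM. Epididymis markers took 2.52% and 2.24% of the counts of Control replicates 1 and 2 and at most 0.00866% of any other library. That 0.00866% was in UBKO replicate 2, at a summed 93.1 CPM. Control replicates 3 to 5 had 0.757 to 11.8 CPM, and the other UBKO libraries 0.260 to 0.789 CPM. All 14 adipocyte markers were detected, and 3 of 14 were higher in UBKO (median log2 difference 0.51; 1 of 14 without Control replicates 1 and 2), with summed levels of 23647 to 49574 CPM in control and 40710 to 60326 CPM in UBKO libraries. All 16 macrophage markers were detected, 15 of 16 were lower (median -2.51), and their summed level ran from 1227 to 2723 CPM in control and from 338 to 439 CPM in UBKO libraries. Of all genes tested, edgeR called 3.88% higher and 7.56% lower, and 1.5% and 4.9% without Control replicates 1 and 2. In whole tissue, fewer cells of a type and less RNA per cell cannot be told apart. The part that these shifts in cell markers have in the results below was not tested. Whether each library is a separate animal is not in the labels, so the p-values reflect only the variation among these 9 libraries, which may be technical.

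Promoters of the 3 genes that rose, and of Hmgcs1, whose window held the letters of a sterol regulatory element, are shown first. Each is the 250 bases before the RefSeq start of the gene, 5′ to 3′. Capitals mark the letters of 3 motifs on either strand, namely TCACNCCAC, a core of the sterol regulatory element to which SREBPs bind, CCAAT, the box bound by NF-Y, and GGGCGG, the GC box bound by Sp1.
Cyp51, GRCm38.p6 chr5:4104698-4104947, minus strand: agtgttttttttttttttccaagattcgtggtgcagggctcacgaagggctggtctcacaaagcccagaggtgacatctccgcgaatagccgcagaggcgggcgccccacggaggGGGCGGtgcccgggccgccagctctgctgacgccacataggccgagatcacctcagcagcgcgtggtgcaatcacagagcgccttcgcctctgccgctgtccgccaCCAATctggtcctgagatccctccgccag
Sc5d, GRCm38.p6 chr9:42264301-42264550, minus strand: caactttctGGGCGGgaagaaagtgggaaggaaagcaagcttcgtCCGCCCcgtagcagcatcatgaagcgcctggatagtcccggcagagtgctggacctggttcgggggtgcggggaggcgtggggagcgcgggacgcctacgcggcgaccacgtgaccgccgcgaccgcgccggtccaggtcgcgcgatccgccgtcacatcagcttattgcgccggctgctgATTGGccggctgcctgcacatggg
Acat2, GRCm38.p6 chr17:12960726-12960975, minus strand: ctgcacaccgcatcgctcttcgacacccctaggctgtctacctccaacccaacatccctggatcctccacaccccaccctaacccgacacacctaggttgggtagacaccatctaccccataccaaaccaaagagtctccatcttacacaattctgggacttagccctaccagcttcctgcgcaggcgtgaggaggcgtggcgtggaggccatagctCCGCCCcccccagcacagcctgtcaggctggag
Hmgcs1, GRCm38.p6 chr13:119690101-119690350, plus strand: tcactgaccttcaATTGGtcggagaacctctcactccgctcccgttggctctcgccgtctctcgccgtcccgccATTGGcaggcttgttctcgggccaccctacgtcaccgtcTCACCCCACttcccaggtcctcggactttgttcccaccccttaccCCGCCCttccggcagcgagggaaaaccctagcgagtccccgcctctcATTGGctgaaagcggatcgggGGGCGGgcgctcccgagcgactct

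RefSeq windows were matched for 24 of the 28 genes, 30 windows in all, while Fdft1, Fdps, Sqle and Stard4 had none. The TCACNCCAC letters were found in 1 of these 30 windows, that of Hmgcs1, and in 1.05% of all 32851 windows of the same length. CCAAT was found in 20 of 30 windows and in 33.8% of all windows. GGGCGG was found in 23 of 30 and in 32.7% of all. None of these motifs lies whole within another, and a match describes the letters only. For the sterol element only these exact letters were searched. A window without them, such as those of Cyp51, Sc5d and Acat2, may still hold another form of it. The windows of Cyp51 and Sc5d each held 1 CCAAT box, at positions -29 and -24 from the RefSeq start, and that of Acat2 held none. The gene extent of Cyp51 given below begins, on its strand, at 4104746, inside this window. Its CCAAT box thus lies within that extent and not before it. The extent of Acat2 also begins inside its window, at 12960747. Hmgcs1 held 3 CCAAT boxes and 1 sterol element core, which lay at position -137 from the start.

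The comparison asks, from the series title, how loss of beta-catenin in Ucp1-expressing adipocytes bears on fat that is being browned. Of the 28 genes, Cyp51, Sc5d and Acat2 rose and 0 fell, with a threshold of 0.05 on the edgeR quasi-likelihood p-value after Benjamini-Hochberg adjustment across every gene tested. Across all 16123 genes, 3.88% were called higher and 7.56% lower. At an unadjusted p under 0.05, 6 of 28 were higher and 1 lower, against 12.4% and 16.1% of all genes. DESeq2's Wald test called 4 higher, the fourth being Fdps, and 0 lower, against 6.81% and 11.4% of all genes. The median log2 difference of the 28 genes was 0.19, and that of all genes tested was -0.005. The 2 largest rises lay in the last stretch of the pathway, from lanosterol to cholesterol.

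Counts of called genes depended on the setting. TMM factors ran from 0.997 to 1.33 in control and from 0.818 to 0.933 in UBKO libraries. The groups did not overlap in this factor, so the choice of scaling bears directly on the genotype difference. Scaling by total counts called 0 of 28 higher and 3 lower, against 1.46% and 27.8% of all genes, and moved the median of all genes to -0.39 and that of the 28 to -0.22, a distance of 0.18 between them against 0.19 with TMM. Scaling by DESeq2 size factors kept the calls of Cyp51, Sc5d and Acat2 (edgeR adjusted p = 0.0107, 0.0359 and 0.035). The median of all genes was 0.0097 under that scaling and that of the 28 was 0.20. Without a filter 1 was higher and 0 lower (all genes 1.05% and 2.84%). With the replicate number as a block 1 was higher and 0 lower (1.33% and 3.19%), in a fit that left out Control replicate 5. With limma on log2(FPKM + 1) 1 was higher and 4 lower (2.3% and 31.2%), with a pseudocount of 0.1 also 1 and 4 (2.28% and 32.1%), and without a filter 0 and 2 (0.576% and 10.2%). Leaving out Control replicates 1 and 2 gave 1 and 0 (1.5% and 4.9%), and leaving out UBKO replicate 2 as well gave 2 and 0 (2.63% and 5.59%). With limma voom and array weights 4 were higher and 0 lower (6.64% and 9.48%). The authors' deposited table had 1 of 28 genes higher and 0 lower at a q-value under 0.05 (1.12% and 3.51% of genes with a finite ratio there). Leaving out each library in turn gave 1 to 3 higher and 0 lower, with 0.915% to 6.01% of all genes called higher and 3.63% to 9.41% lower.

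**Figure D1:**
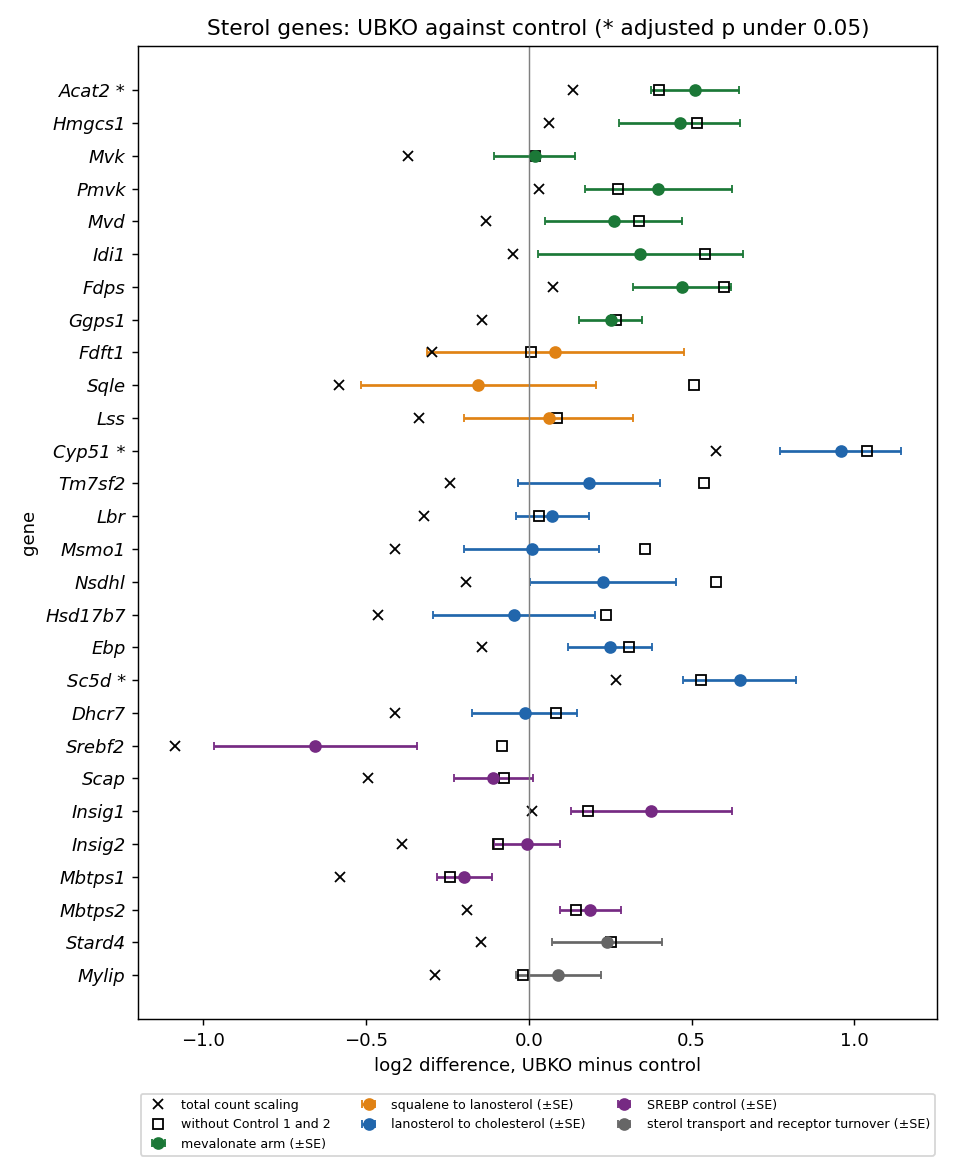
Log2 difference between UBKO (n = 4) and control (n = 5) libraries for each of the 28 genes, coloured by role, with SE as bars and an asterisk for an adjusted p under 0.05. Crosses give the difference with scaling by total counts and squares that without Control replicates 1 and 2. Cyp51 stands furthest to the right at 0.96, and Srebf2 furthest to the left at -0.65.

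Cyp51, the cytochrome P450 that demethylates lanosterol, was the gene with the largest difference among the 28 (ENSMUSG00000001467, mm10 chromosome 5, 4081145 to 4104746). Control replicates 1 to 5 had 77.9, 106, 97.3, 78.5 and 61.1 CPM, and the libraries labelled UBKO replicates 1 to 4 had 207, 162, 159 and 125 CPM. Every UBKO library lay above every control. Its log2 difference was 0.96 (SE 0.19), a rise of 1.94-fold between group means of 84.1 ± 17.6 (SD, n = 5) and 163 ± 33.9 CPM (SD, n = 4), at an edgeR adjusted p = 0.012. Each of 9 fits that left out 1 library kept the call, with log2 differences of 0.82 to 1.07 and edgeR adjusted p-values of at most 0.0396, reached when the library labelled UBKO replicate 3 was left out. Without Control replicates 1 and 2 the log2 difference was 1.04 (edgeR adjusted p = 0.0251). Total-count scaling ended the call (log2 difference 0.58, edgeR adjusted p = 0.0601). The authors' deposited table gave Cyp51 a log2 ratio of 0.61 and a q-value of 0.0045, the only member of the 28 with a q-value under 0.05 there. Exons of Cyp51 overlap those of Akap9, a scaffold of protein kinase A on the other strand with 31.5% as many counts. Whether counting used strand is not stated in the sources used here, so reads in the shared stretch may not be told apart. The length of that stretch was not measured, and the part of Akap9 reads in the Cyp51 count was not tested. Akap9 had 33.8 ± 6.53 CPM (SD, n = 5) in control against 39.8 ± 5.99 CPM (SD, n = 4) in UBKO libraries (log2 difference 0.24, edgeR adjusted p = 0.368).

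Sc5d, the desaturase that acts late in the pathway, rose 1.57-fold, with a log2 difference of 0.65 (SE 0.17, edgeR adjusted p = 0.0404). Its control libraries had 85.8, 105, 143, 96.5 and 109 CPM and its UBKO libraries 190, 130, 198 and 159 CPM. The groups overlapped, since UBKO replicate 2 lay below Control replicate 3. The call of Sc5d was kept in 2 of 9 fits that left out 1 library, and with the library labelled UBKO replicate 3 left out the edgeR adjusted p was 0.124. Acat2, the cytosolic thiolase that joins acetyl-CoA at the head of the pathway, rose 1.42-fold (log2 difference 0.51, SE 0.14, edgeR adjusted p = 0.0396). It had 132, 125, 178, 162 and 123 CPM in Control replicates 1 to 5 and 220, 181, 215 and 204 CPM in the libraries labelled UBKO replicates 1 to 4. All UBKO libraries stood above all controls, though UBKO replicate 2 was only just above Control replicate 3. For Acat2, 3 of 9 such fits kept the call, and with the library labelled UBKO replicate 3 left out its edgeR adjusted p was 0.113. Without Control replicates 1 and 2 neither passed (Sc5d 0.53 and Acat2 0.40 on the log2 scale, edgeR adjusted p = 0.135 and 0.141), and scaling by total counts also ended both calls (0.27 and 0.14, edgeR adjusted p = 0.179 and 0.336).

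Acat2 is uncertain for a further reason. Of the 50-base words in its GENCODE M21 transcripts, 39.1% also occur in Acat3, its neighbour on chromosome 17, so the counting could split reads between them. Acat3 had 17.4 ± 3.09 CPM (SD, n = 5) in control against 24.8 ± 4.43 CPM (SD, n = 4) in UBKO libraries (log2 difference 0.51, edgeR adjusted p = 0.0806). Acat1, the mitochondrial thiolase of ketone body and isoleucine breakdown, was also higher, with 237 ± 71.0 CPM (SD, n = 5) in control against 417 ± 49.8 CPM (SD, n = 4) in UBKO libraries (edgeR adjusted p = 0.0366). The FPKM ratio of Acat2 to Acat1 was 0.794, 0.573, 0.482, 0.675 and 0.427 in Control replicates 1 to 5 and 0.457, 0.482, 0.478 and 0.412 in the libraries labelled UBKO replicates 1 to 4. The groups overlapped, and the log2 ratio differed by -0.34 (exact two-sided permutation p = 0.111, 0.127 adjusted over 2 ratios). The smallest p this design allows is 0.0159.

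**Figure D2:**
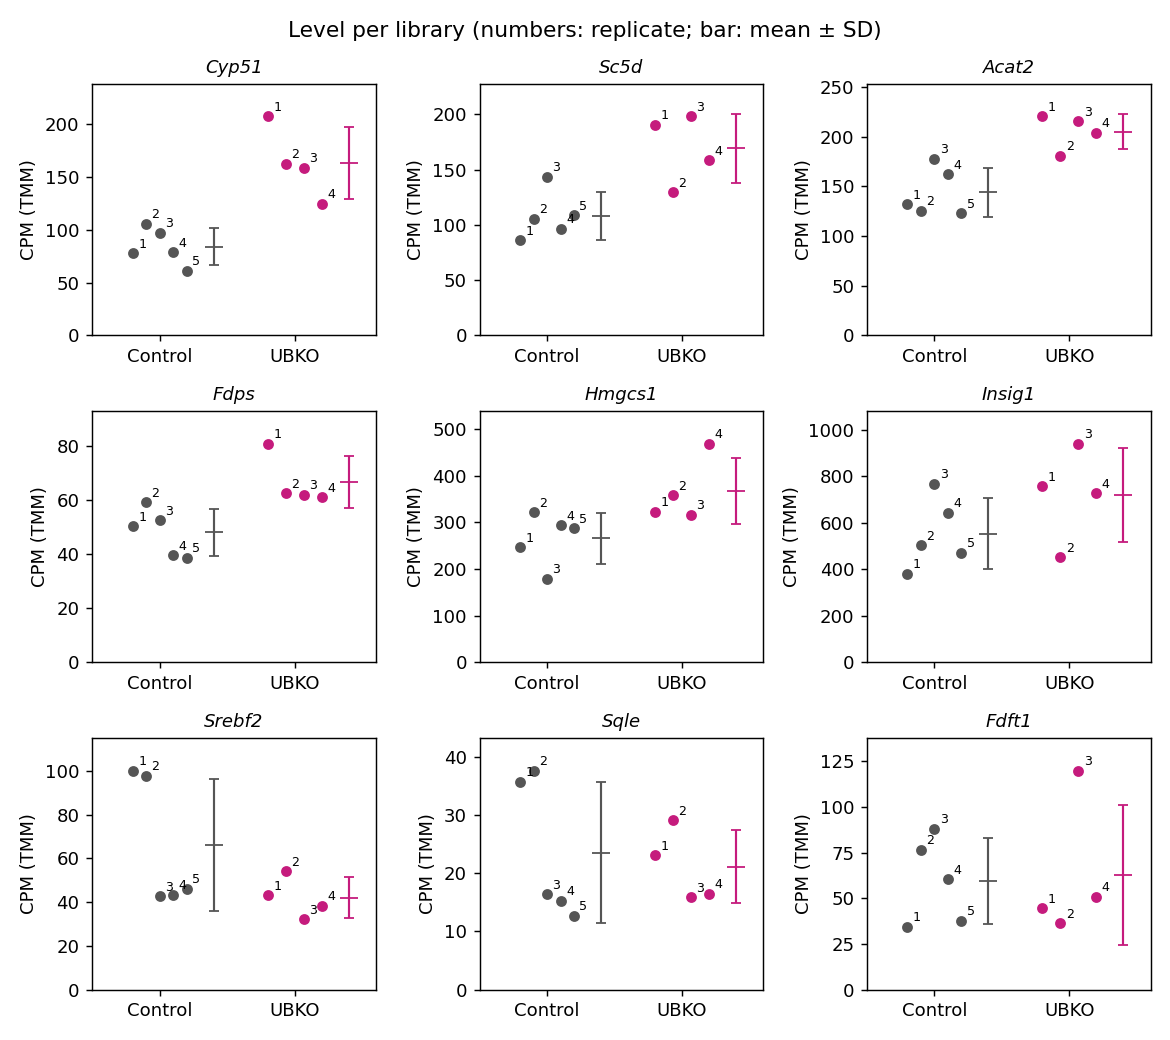
CPM scaled by TMM in each library for 9 of the genes, with replicate numbers beside the points and the mean ± SD of each group (control n = 5, UBKO n = 4). All UBKO libraries lie above all controls for Cyp51, Acat2 and Fdps, while for Srebf2 and Sqle the highest libraries are Control replicates 1 and 2.

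In the mevalonate arm, the stretch from acetyl-CoA to the prenyl diphosphates, 1 of 8 genes rose (Acat2) and 0 fell, and 8 of 8 had a log2 difference above 0 (median 0.37), or 4 of 8 with scaling by total counts. Fdps, the farnesyl diphosphate synthase, had 50.4, 59.2, 52.5, 39.6 and 38.7 CPM in controls and 80.9, 62.5, 62.0 and 61.2 CPM in UBKO libraries. The groups did not overlap, yet the difference of 0.47 (SE 0.15) missed the threshold (edgeR adjusted p = 0.0723). DESeq2 called it (adjusted p = 0.0301), and with 1 library left out it passed in 1 of 9 edgeR fits (adjusted p = 0.0445 without Control replicate 2). Words shared with other genes made up 26.2% of its transcripts, so its counts are uncertain. Hmgcs1, which makes HMG-CoA in the cytosol, had 246, 321, 180, 293 and 287 CPM in controls and 323, 358, 316 and 468 CPM in UBKO libraries. The lowest UBKO library fell just under the highest control, and the difference of 0.46 (SE 0.19) did not pass (edgeR adjusted p = 0.136). Ggps1, which makes geranylgeranyl diphosphate, ran from 16.9 to 18.9 CPM in controls and from 20.1 to 24.6 CPM in UBKO libraries (log2 difference 0.25, edgeR adjusted p = 0.123). These ranges did not overlap, though exons of Ggps1 overlap Arid4b, a gene on the other strand with 93.6% as many counts and a log2 difference of 0.15.

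Of the remaining enzymes of that arm, Pmvk, Mvd and Idi1 varied within the UBKO group, and Mvk did so less. Pmvk, the phosphomevalonate kinase, had 114 CPM in UBKO replicate 1 and 54.9 to 73.4 CPM in the other UBKO libraries, against 49.0 to 77.7 CPM in controls. Mvd, the mevalonate diphosphate decarboxylase, ran from 17.7 CPM in UBKO replicate 4 to 39.8 CPM in UBKO replicate 1, on either side of the control range of 20.6 to 27.3 CPM. Idi1, the isopentenyl diphosphate isomerase, was spread most widely of the 28 genes, 3.81-fold from 14.2 CPM in UBKO replicate 4 to 54.0 CPM in UBKO replicate 1. Its controls spanned 21.3 to 32.2 CPM, inside the UBKO range. Words shared with other genes made up 17.7% of the Idi1 transcripts. Mvk, the mevalonate kinase, had 31.1 ± 3.59 CPM (SD, n = 5) and 31.5 ± 4.16 CPM (SD, n = 4). None of Pmvk, Mvd, Idi1 and Mvk passed (edgeR adjusted p = 0.283, 0.456, 0.516 and 0.942).

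None of the 3 enzymes between farnesyl diphosphate and lanosterol passed the test (lowest edgeR adjusted p = 0.821). Sqle, the squalene epoxidase, a rate-controlling oxygenase, had 35.7 and 37.6 CPM in Control replicates 1 and 2, 16.4, 15.2 and 12.7 CPM in Control replicates 3 to 5, and 23.1, 29.1, 15.8 and 16.5 CPM in the libraries labelled UBKO replicates 1 to 4. The highest values were those of the 2 controls that held epididymal transcripts. Its log2 difference was -0.16 with all libraries and 0.51 without those 2 (edgeR adjusted p = 0.821 and 0.251). Lss, the cyclase that forms lanosterol, lay between 39.7 and 49.4 CPM in controls, while UBKO libraries held both the highest value, 77.4 CPM in replicate 1, and the lowest, 26.7 CPM in replicate 2. Fdft1, the squalene synthase, had 34.5, 76.5, 88.2, 60.5 and 37.7 CPM in controls and 44.7, 36.3, 120 and 50.8 CPM in UBKO libraries. Low and high libraries occurred in both groups, and the highest was the library labelled UBKO replicate 3. Exons of Fdft1 overlap Ctsb, which encodes the lysosomal protease cathepsin B on the other strand and held 4294% as many counts. Ctsb fell, with 3092 ± 591 CPM (SD, n = 5) in control against 1814 ± 282 CPM (SD, n = 4) in UBKO libraries (edgeR adjusted p = 0.0291), and had 1943 CPM in the library labelled UBKO replicate 3. Whether Ctsb reads entered the Fdft1 count was not tested.

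From lanosterol to cholesterol, 2 of 9 genes rose (Cyp51 and Sc5d), 0 fell, and 7 of 9 had a log2 difference above 0 (median 0.18), or 2 of 9 with scaling by total counts and 9 of 9 without Control replicates 1 and 2. Nsdhl, a dehydrogenase of sterol demethylation, stood at 103 and 109 CPM in Control replicates 1 and 2, 66.6, 62.8 and 56.0 CPM in Control replicates 3 to 5, and 120, 84.7, 88.9 and 77.7 CPM in the libraries labelled UBKO replicates 1 to 4. Msmo1, the methylsterol oxidase that acts with it, had 46.3 and 58.5 CPM, then 28.8, 34.1 and 29.2 CPM, in the same order of controls, and 37.7 to 41.3 CPM in UBKO libraries. Tm7sf2, a sterol reductase, had 27.1 and 27.4 CPM, then 18.01, 16.1 and 13.5 CPM, and 20.3 to 26.8 CPM in UBKO libraries. For all 3 genes the UBKO libraries lay above Control replicates 3 to 5, and Control replicates 1 and 2 stood above those 3 controls. With all libraries the log2 differences were 0.23, 0.01 and 0.18 and did not pass (edgeR adjusted p = 0.55, 0.984 and 0.625). Without Control replicates 1 and 2 they were 0.58, 0.36 and 0.54 (edgeR adjusted p = 0.0718, 0.0837 and 0.0674). With UBKO replicate 2 also left out, Tm7sf2 passed (log2 difference 0.62, edgeR adjusted p = 0.0464), though it overlaps Vps51, a gene on the same strand with 119% as many counts.

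Hsd17b7, a ketosterol reductase, followed Control replicates 1 and 2 too, at 16.4 and 15.4 CPM against 9.64 to 10.8 CPM in the other controls. Its UBKO libraries had 18.3 CPM in replicate 1 and 9.45 to 10.3 CPM in the others, so both groups held a high and a low set. Ebp, the sterol isomerase, had 49.1 ± 7.06 CPM (SD, n = 5) and 58.3 ± 7.18 CPM (SD, n = 4), a log2 difference of 0.25 (edgeR adjusted p = 0.241). Dhcr7, the reductase of the last step, and Lbr, a sterol reductase that also binds lamins at the nuclear envelope, had log2 differences of -0.01 and 0.07 (edgeR adjusted p = 0.974 and 0.716). Dhcr7 was highest in UBKO replicate 1 at 27.4 CPM, while Lbr stayed between 24.7 and 33.3 CPM in every library.

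**Figure D3:**
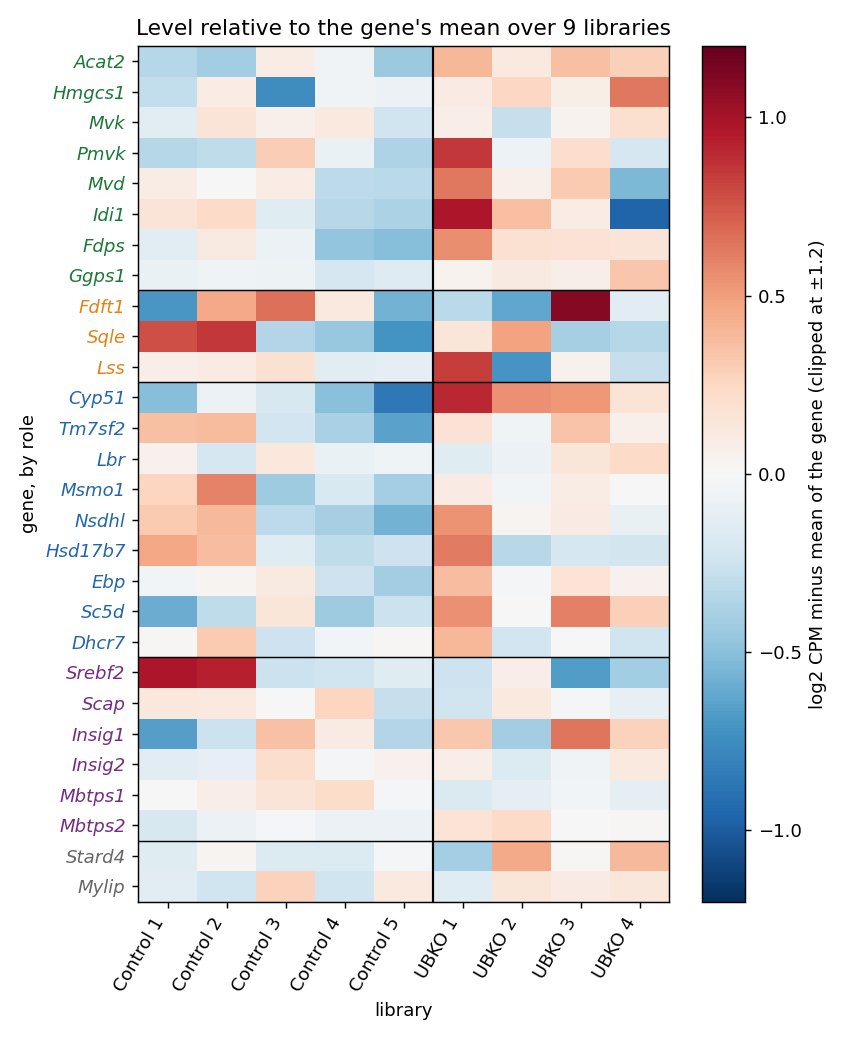
Level of each gene in each library as log2 CPM minus the mean of that gene over the 9 libraries, with genes ordered and coloured by role and a vertical line between control and UBKO libraries. Red marks higher and blue lower levels. Control replicates 1 and 2 are red for Srebf2 and Sqle, and UBKO replicate 1 holds the highest level of 11 of the 20 enzymes.

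Both patterns across libraries can be counted. Of the 20 enzymes, 11 had their highest level in UBKO replicate 1, which was the highest library for 11.4% of all genes tested. Control replicate 5 was the lowest library for 8 of 20 enzymes and for 9.11% of all genes tested. The mean log2 CPM over the 20 enzymes was 5.47, 5.64, 5.45, 5.28 and 5.14 in Control replicates 1 to 5 and 5.89, 5.49, 5.70 and 5.47 in the libraries labelled UBKO replicates 1 to 4. The highest 2 were UBKO libraries, and the other UBKO libraries lay within the control range. Control replicates 1 and 2 both lay above the other 3 controls for 8 of 28 genes (Idi1, Sqle, Tm7sf2, Msmo1, Nsdhl, Hsd17b7, Dhcr7 and Srebf2), against 19.7% of all genes tested. They lay below them for 2 of 28 (Insig2 and Mbtps2), against 19.5%. Groups that do not overlap were found for 5 of 28 genes in the higher direction (Acat2, Fdps, Ggps1, Cyp51 and Mbtps2), against 6.41% of all genes tested, and for 1 of 28 in the lower direction (Mbtps1), against 9.11%.

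Of the 6 genes that control SREBPs, 0 rose and 0 fell (lowest edgeR adjusted p = 0.164). Srebf2, which encodes the SREBP that acts mainly on sterol genes, had 100 and 97.8 CPM in Control replicates 1 and 2, 42.8, 43.4 and 46.2 CPM in Control replicates 3 to 5, and 43.2, 54.2, 32.1 and 38.4 CPM in the libraries labelled UBKO replicates 1 to 4. Control replicates 1 and 2 thus stood apart from all 7 other libraries. With them the log2 difference was -0.65 (SE 0.31, edgeR adjusted p = 0.201), and without them it was -0.08 (SE 0.17, edgeR adjusted p = 0.827). Scap, the escort protein, had 52.9 ± 7.07 CPM (SD, n = 5) and 49.1 ± 4.97 CPM (SD, n = 4; edgeR adjusted p = 0.606).

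Mbtps1, the Golgi protease that makes the first cut in SREBPs, had 79.4, 84.3, 88.5, 93.2 and 78.9 CPM in controls and 70.9, 73.8, 77.9 and 73.5 CPM in UBKO libraries. The UBKO libraries lay below all controls, with a small gap, and the log2 difference of -0.20 (SE 0.09) did not pass (edgeR adjusted p = 0.164). Mbtps2, the membrane protease that makes the next cut, ran from 15.5 to 17.5 CPM in controls and from 17.6 to 20.7 CPM in UBKO libraries, the reverse order (log2 difference 0.19, edgeR adjusted p = 0.222). Words shared with other genes, among them Yy2, which lies within it, made up 28.9% of the Mbtps2 transcripts. With scaling by total counts Mbtps1, Scap and Insig2 were called lower (log2 difference -0.58, -0.49 and -0.39, edgeR adjusted p = 0.00405, 0.0397 and 0.02). The median of all genes was -0.39 under that scaling, where 27.8% of all genes were called lower and 1.46% higher.

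Insig1, which retains SCAP and is itself an SREBP target, had 381, 505, 768, 644 and 472 CPM in controls and 757, 452, 941 and 728 CPM in UBKO libraries. The highest was the library labelled UBKO replicate 3, while UBKO replicate 2 was among the lowest, and the log2 difference of 0.38 (SE 0.25) did not pass (edgeR adjusted p = 0.353). Insig2, its paralogue, stood at 39.3 ± 3.79 CPM (SD, n = 5) and 39.2 ± 3.43 CPM (SD, n = 4; edgeR adjusted p = 0.984). The FPKM ratio of Insig1 to Insig2 was 23.4, 30.3, 37.2, 36.7 and 25.4 in Control replicates 1 to 5 and 40.1, 28.4, 54.2 and 37.5 in the libraries labelled UBKO replicates 1 to 4. Insig1 exceeded Insig2 per length in every library. The log2 ratio was higher by 0.38 in UBKO, with overlapping groups (exact two-sided permutation p = 0.127, 0.127 adjusted over 2 ratios). Without UBKO replicate 2 the groups did not overlap and the difference was 0.53 (exact two-sided permutation p = 0.0357, 0.0714 adjusted over 2 ratios). That p is the smallest the remaining libraries allow. A single ratio could therefore not pass after adjustment, and this fit cannot decide the question.

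Neither of the genes for sterol transport and receptor turnover passed. Stard4, a cytosolic cholesterol transfer protein, ran from 15.1 to 17.2 CPM in controls and more widely in UBKO libraries, at 12.7, 23.0, 17.1 and 22.1 CPM (edgeR adjusted p = 0.387). Mylip, the ubiquitin ligase that marks lipoprotein receptors for degradation under the sterol-sensing receptors LXR, had 57.9 ± 9.54 CPM (SD, n = 5) and 61.7 ± 5.64 CPM (SD, n = 4; edgeR adjusted p = 0.697).

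Levels were compared between genes per length, as the authors' FPKM, which are scaled to total counts. Insig1 was highest, at 174 ± 32.4 FPKM (SD, n = 5) in control and 178 ± 43.8 FPKM (SD, n = 4) in UBKO libraries, above 98.5% of the genes tested in controls. Hmgcs1 came next in controls with 43.8 ± 10.5 FPKM, then Acat2 with 34.2 ± 3.57 FPKM and Nsdhl with 29.7 ± 11.5 FPKM (SD, n = 5). The lowest were Ggps1 with 1.75 ± 0.218 FPKM and Mbtps2 with 1.21 ± 0.0791 FPKM (SD, n = 5). Among neighbours in this order, the ranges over control libraries did not overlap between Insig1 and Hmgcs1, nor between Ggps1 and Mbtps2, and overlapped for the other 25 pairs. Cyp51 held rank 7 in controls with 17.2 ± 3.81 FPKM (SD, n = 5) and rank 5 in UBKO libraries with 26.1 ± 6.10 FPKM (SD, n = 4).

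**Figure D4:**
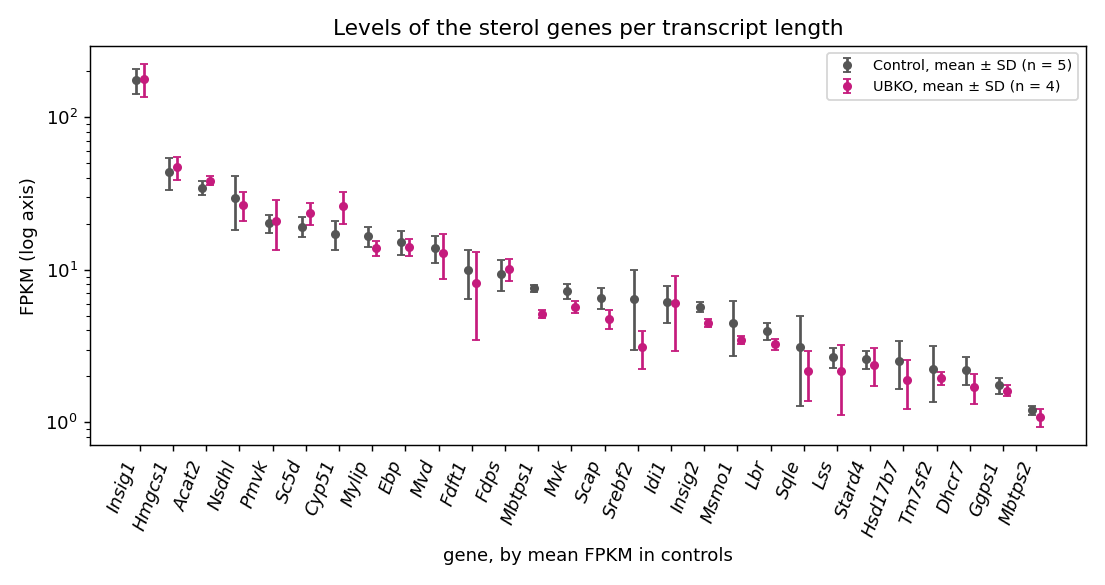
FPKM of the 28 genes on a log axis, ordered by the control mean, with mean ± SD for control (n = 5) and UBKO (n = 4) libraries. Insig1 stands apart at the top, and Mbtps2 is lowest in both groups.

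Genes next to the sterol pathway were read from 4 other lists. Of all genes tested, edgeR called 3.88% higher and 7.56% lower with all libraries, and 1.5% and 4.9% without Control replicates 1 and 2. Under total counts the shares were 1.46% and 27.8%, and with DESeq2 6.81% and 11.4%. The counts of every list below stand against these shares. In the fatty acid arm of SREBP control, 5 of 16 genes rose and 0 fell (median log2 difference 0.93). Srebf1, which encodes the SREBP of fatty acid synthesis, rose, with 482 ± 132 CPM (SD, n = 5) in control against 863 ± 75.2 CPM (SD, n = 4), and its UBKO libraries lay above all controls (log2 difference 0.84, edgeR adjusted p = 0.0235). Me1, the cytosolic malic enzyme, Acaca, an acetyl-CoA carboxylase, and Acly, the ATP citrate lyase, rose by 1.71, 1.43 and 1.82 on the log2 scale (edgeR adjusted p = 0.0273, 0.03 and 0.0306). The remaining gene that rose was Elovl6, a fatty acid elongase (log2 difference 1.93), named after its value was seen. For Srebf1, Me1, Acaca and Acly the highest library was UBKO replicate 1, as for 11 of the 20 sterol enzymes. The summed level of the list was 72197 CPM in that library, 41348 to 57159 CPM in the other UBKO libraries and 11273 to 36298 CPM in controls. Without Control replicates 1 and 2, 2 of 16 genes were called higher, and DESeq2 called 9 of 16 with all libraries.

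Among 12 genes of SREBP and sterol enzyme degradation at the endoplasmic reticulum, 1 rose and 1 fell (median -0.09). Of all genes tested, 3.88% were called higher and 7.56% lower. Ufd1, a cofactor of the extraction ATPase VCP, rose by 0.39 and Erlin1, a scaffold of the degradation machinery, fell by 0.41 on the log2 scale (edgeR adjusted p = 0.0458 and 0.0472). Ube2g2, a ubiquitin-conjugating enzyme, and Rnf139, a ubiquitin ligase that binds INSIG, had log2 differences of -0.57 and 0.25 (edgeR adjusted p = 0.0836 and 0.182). Without Control replicates 1 and 2, 0 of 12 were called by edgeR. Under total counts 0 were higher and 7 lower, against 1.46% and 27.8% of all genes. Of 13 genes that use prenyl diphosphates outside sterol synthesis, 0 rose and 0 fell by edgeR (median 0.10). At an unadjusted p under 0.05, 3 were higher and 1 lower, against 12.4% and 16.1% of all genes. DESeq2 called 2 higher and 1 lower, against 6.81% and 11.4% of all genes. The smallest p among the 13 genes were those of Fnta, a subunit of farnesyltransferase, Nus1, a subunit of the dolichol synthase, and Pdss1 and Pdss2, which build the coenzyme Q tail (edgeR adjusted p = 0.0505, 0.061, 0.0735 and 0.0925). Their log2 differences were 0.39, -0.56, 0.48 and 0.44.

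Of 11 tested genes of sterol esterification, hydrolysis and efflux, 1 rose and 4 fell (median -0.53). Of all genes tested, 3.88% were called higher and 7.56% lower. Soat1, the main cholesterol esterifying enzyme outside liver and gut, fell, with 40.3 ± 12.6 CPM (SD, n = 5) in control against 10.7 ± 4.65 CPM (SD, n = 4), and Lipa, the lysosomal acid lipase, with 198 ± 63.3 against 74.5 ± 9.20 CPM (edgeR adjusted p = 0.00787 and 0.00718). Nceh1, a cholesteryl ester hydrolase of macrophages, and Abcg1, a cholesterol exporter, fell by 2.19 and 0.65 on the log2 scale (edgeR adjusted p = 0.0128 and 0.0199). The groups did not overlap for any of these 4 genes, against 9.11% of all genes tested in the lower direction. These 4 had the smallest p of their list, so the lack of overlap adds no separate support. The gene that rose was Ch25h, a cholesterol hydroxylase (log2 difference 1.22), at a mean of 1.37 CPM in UBKO libraries and named after its value was seen. Its call ended under total counts (log2 difference 0.84, edgeR adjusted p = 0.0688) and without Control replicates 1 and 2 (1.16, edgeR adjusted p = 0.123). Under total counts 7 of the 11 genes were called lower, against 27.8% of all genes. Macrophage markers had a median log2 difference of -2.51 in the same libraries, and their part in the fall of these genes was not tested.

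Other cell markers moved as well. Of all genes tested, edgeR called 3.88% higher and 7.56% lower, and shares under the other settings are those given above. Of 9 thermogenic markers 5 rose (median 0.91), with summed levels of 93.8 to 220 CPM in controls and 322 to 514 CPM in UBKO libraries. Proliferation markers fell in 9 of 12 cases (median -0.95; 163 to 276 CPM against 96.0 to 139 CPM), and fibroblast markers in 5 of 8 (median -0.83; 3000.4 to 4780.0 CPM against 1676 to 2597 CPM). Endothelial markers rose in 2 of 8 cases (median 0.27; 830.0 to 1297 CPM against 1189 to 1604 CPM). With Control replicates 1 and 2 left out, 2 thermogenic markers and 1 endothelial marker were called higher, and 3 proliferation and 5 fibroblast markers lower. Under total counts 2 thermogenic markers were called higher and 1 lower, and 1 endothelial marker was called higher. Lymphocyte markers had 4 of 8 genes tested with 0 called by edgeR (0 higher and 2 lower at an unadjusted p under 0.05; 1 lower by DESeq2 and 2 lower under total counts), at 4.66 to 7.16 CPM against 3.80 to 5.07 CPM, and steroidogenic markers 2 of 6 tested with 1 lower, at 23.7 to 79.0 CPM against 5.91 to 19.4 CPM. Of 14 epididymis markers present, 1 was tested by edgeR and 0 were called (0 at an unadjusted p under 0.05), whereas DESeq2 called 10 lower. No marker of these lists that was in the table was at 0 counts in all libraries. The part of these shifts in the sterol genes was not tested.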

How the data were processed

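Gene counts and FPKM per library came from the authors' deposited table, which also holds their log2 ratios, p-values and q-values, copied here as deposited. HISAT2, SAMtools 1.3.1, Cuffdiff and mm10 are named per the submitters' processing notes, and which step each served is not stated in the sources used here. Counts were tested with edgeR 4.0.16 (R 4.3.3; TMM scaling, filterByExpr, quasi-likelihood test) over all genes, with Benjamini-Hochberg adjustment and a threshold of 0.05. Alternatives used DESeq2 1.42.0, limma 3.58.1 on log2(FPKM + 1) and log2(FPKM + 0.1) (genes with an FPKM of at least 1 in 4 libraries), other scalings, no filter, a replicate block, and libraries left out. The replicate block left out Control replicate 5, which has no UBKO library of the same number. The 2 ratios were tested by exact permutation (scipy 1.17.1). No replicate pair was a repeat of 1 library (lowest chi-square per degree of freedom 17.0). The tests were tested on simulated data. Gene positions and shared 50-base words came from GENCODE M21 (99.65% of identifiers matched), and promoters from RefSeq. All 28 genes are named, with up to 4 genes of each other sterol list by smallest p. Members and lists were chosen with earlier results of these data known.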

Additional observations from a re-analysis of the deposited data

Results flagged for a closer look

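Among 72 groups of 4 or 5 libraries examined, 2 held a library far from the rest by Dixon's criterion, which chance meets in about 1 in 20 groups. Fdps had 80.9 CPM in UBKO replicate 1 and 61.2 to 62.5 CPM in the other UBKO libraries. Hsd17b7 had 18.3 CPM in UBKO replicate 1 and 9.45 to 10.3 CPM in the other UBKO libraries.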

How the results depend on the processing

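Gene counts summed to at least 15308480 per library, and 5 against 4 libraries allow no exact permutation p under 0.0159. Fits that leave out a library keep at least 3 per group. Deviations from the group means in same-numbered libraries had correlations of -0.18, 0.54, 0.09 and 0.16 for replicates 1 to 4. They were not compared with those of differently numbered libraries, so they cannot settle whether replicate numbers pair the samples. The cause of any change below was not tested unless a sentence names it. With 3 genes higher and 0 lower as reported, total counts gave 0 and 3, no filter 1 higher, limma on log2(FPKM + 1) and on log2(FPKM + 0.1) 1 and 4 each, limma on log2(FPKM + 1) without a filter 0 and 2, the replicate block 1 higher, fits without Control replicates 1 and 2 1 higher, and the authors' deposited comparison 1 higher; leaving out each library in turn gave 1 to 3. For Mvk, Mvd, Idi1, Ggps1, Fdft1, Lss, Tm7sf2, Lbr, Msmo1, Nsdhl, Ebp, Mbtps2, Stard4 and Mylip, the log2 difference turned negative under total counts (-0.37, -0.13, -0.050, -0.14, -0.30, -0.34, -0.24, -0.32, -0.41, -0.19, -0.14, -0.19, -0.15 and -0.29). In the same order limma on log2(FPKM + 1), with or without a filter, gave -0.29, -0.13, -0.10, -0.069, -0.30, -0.26, -0.098, -0.22, -0.24, -0.093, -0.096, -0.088, -0.10 and -0.24. With the pseudocount of 0.1 they were -0.33, -0.14, -0.14, -0.10, -0.34, -0.38, -0.12, -0.28, -0.28, -0.095, -0.10, -0.15, -0.14 and -0.25. The authors' deposited table had -0.34, -0.099, -0.016, -0.11, -0.27, -0.31, -0.20, -0.29, -0.37, -0.16, -0.11, -0.16, -0.12 and -0.26. On these scales all genes shifted too (median -0.39 under total counts, -0.26 with log2(FPKM + 1) and -0.33 with log2(FPKM + 0.1)). With log2(FPKM + 1) and no filter the median was -0.084 for all genes and -0.12 for the 28, the only setting here in which the 28 lay below all genes. The median of the 28 was also -0.12 with the filter. Only that of all genes moved, over 28481 genes without the filter against 12031 with it. The replicate block was fitted without Control replicate 5, which has no UBKO library of the same number. It turned Mvk to -0.020, Fdft1 to -0.10, Lss to -0.059, Msmo1 to -0.0082 and Insig2 to 0.030, and ended the calls of Acat2 and Sc5d. Leaving out that library with no block also ended both calls (edgeR adjusted p = 0.0716 and 0.0688). Mvk then stood at -0.014, Fdft1 at -0.023, Msmo1 at -0.060, Insig2 at 0.028 and Lss at 0.048. The part of the block itself was not tested. Without Control replicates 1 and 2 Sqle turned to 0.51, Hsd17b7 to 0.24, Dhcr7 to 0.082 and Mylip to -0.016, and without UBKO replicate 2 as well to 0.34, 0.37, 0.18 and -0.019. Array weights gave Hsd17b7 0.014 and Insig2 0.0050, DESeq2 size factors gave Dhcr7 0.0022 and Insig2 0.010, and no filter gave Insig2 0.0030. Leaving out each library in turn gave -0.042 to 0.11 for Mvk, -0.43 to 0.27 for Fdft1, -0.35 to 0.09 for Sqle, -0.30 to 0.25 for Lss, -0.085 to 0.21 for Msmo1, -0.31 to 0.09 for Hsd17b7, -0.17 to 0.09 for Dhcr7 and -0.044 to 0.049 for Insig2, and without Control replicates 1 and 2 and UBKO replicate 2 the log2 difference was 0.13 for Mvk, 0.31 for Lss and 0.41 for Msmo1. Leaving out 1 library gave 0.22 to 0.53 for the Insig1 to Insig2 log2 ratio and -0.44 to -0.22 for Acat2 to Acat1 (without Control replicate 5, exact permutation p = 0.0286, 0.0571 adjusted over 2 ratios). That p is the smallest the remaining libraries allow. A single ratio could therefore not pass after adjustment, and this fit cannot decide the question. Mean log2 levels differed under total counts by -0.040 in the mevalonate arm, -0.38 from squalene to lanosterol, -0.088 from lanosterol to cholesterol, -0.41 for SREBP control, -0.20 for transport and turnover and -0.11 over all enzymes. Shares of all genes called under each setting are given in the results above. For the other lists, total counts gave 0 higher and 7 lower in SREBP degradation and 3 lower in isoprenoid branches. In esterification and efflux they gave 0 higher and 7 lower. Among markers they gave 1 adipocyte marker lower, 2 thermogenic markers higher and 1 lower, 1 endothelial marker higher and 2 lymphocyte markers lower. DESeq2 gave 2 lower in SREBP degradation, 9 higher in the fatty acid arm, 2 higher and 1 lower in isoprenoid branches, and 1 adipocyte, 10 epididymis and 1 lymphocyte marker lower. Fits without Control replicates 1 and 2 gave 0 higher and 0 lower in SREBP degradation, 2 higher in the fatty acid arm, 0 higher in esterification and efflux, 1 adipocyte, 2 thermogenic and 1 endothelial marker higher, and 3 proliferation markers lower.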
